A study of Mus musculus with 6 samples.

Results

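Ribosome biogenesis and nucleolar factors are the proteins that transcribe, modify, cut and assemble ribosomal RNA in the nucleolus, and 52 genes for such factors were examined in naïve CD4 T cells after Cre-mediated deletion of Rnmt, the gene of the cap methyltransferase RNMT. They were taken by MGI symbol from a list of known nucleolar functions and are 52 of the 46983 genes for which counts were deposited. All 52 passed the expression filter and were among the 12336 genes tested.

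RNMT methylates the cap guanosine at the 5′ end of transcripts made by RNA polymerase II, and the study asked which RNAs depend on it in T cells. RNA sequencing of rRNA-depleted total RNA was carried out in 6 libraries, 3 control and 3 Rnmt cKO, of TCRb+ CD4+ CD62L+ CD44- DAPI- cells sorted from lymph nodes of male mice. Both groups carried 2 floxed alleles (Rnmt fl/fl), with loxP sites on either side of the third exon, on a C57B6/J background. Control animals lacked the Cre transgene (CD4cre -) and Rnmt cKO animals carried it (CD4cre +), so that the transgene and the loss of Rnmt cannot be told apart. Cre in this line is driven by Cd4 regulatory sequence and acts from the thymus onwards, so the cells had passed through late thymic development after deletion. No treatment or age is stated in the labels. The study counts the samples of this experiment as mice, while the labels number the libraries without naming animals.

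Sense counts in genes came to between 8873413 and 11277764 per library, and the count of any member in any library was between 63 and 8116. The targeted gene Rnmt held 438, 588 and 524 counts in controls and 397, 444 and 297 counts in Rnmt cKO cells. Its log2 fold change was -0.67 (standard error, SE, of 0.20, adjusted p = 0.00035 by the edgeR exact test), and counts over the whole gene include transcripts without the deleted exon. Uniquely mapped reads that fell in no gene made up 36.1, 39.7 and 46.1% of the control libraries and 47.9, 46.5 and 31.8% of the Rnmt cKO libraries, and Rnmt cKO 3 stood apart from the other Rnmt cKO libraries in this share. Naïve T cell markers summed to 4949 to 5321 counts scaled to a common library size (CPM) in controls and 5605 to 6253 CPM in Rnmt cKO cells, with none of the 8 at 0. Proliferation markers summed to 274 to 305 CPM in control cells and 555 to 613 CPM in Rnmt cKO cells, where 10 of 12 passed the test as higher, and B cell markers to 41.0 to 48.9 and 53.7 to 91.6 CPM, where 4 of 7 did. Myeloid markers summed to 5.79 to 7.62 CPM in controls and 10.4 to 23.5 CPM in Rnmt cKO cells, CD8 T cell markers to 21.7 to 23.3 and 13.5 to 17.3 CPM, and haemoglobin genes to 4.53 to 7.29 and 0.634 to 1.17 CPM. The part that these shares and marker levels play in the results below was not tested. In RNA from a sorted population, fewer cells of a type and less RNA per cell cannot be told apart.

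Ribosome synthesis starts with transcription of ribosomal DNA by RNA polymerase I. The transcript is modified by small nucleolar ribonucleoproteins (snoRNPs), in which box C/D and box H/ACA RNAs guide methylation and pseudouridylation. It is then cut and folded within large assemblies of scaffold proteins, helicases and GTPases that separate into precursors of the small and the large subunit. A resting naïve T cell makes few ribosomes, and antigen stimulation brings a steep increase in nucleolar activity.

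The mRNAs of these factors differed little between the 2 groups of naïve CD4 T cells. Of the 52, 1 fell (Nsa2) and 2 rose (Noc2l and Noc4l), and 49 did not pass the edgeR exact test at an adjusted p of 0.05. The called share was 5.77%, beside 14.8% of all tested genes (6.84% lower and 8% higher). At an unadjusted p of 0.05, 2 members were lower (Nsa2 and Nop10) and 7 were higher (Noc2l, Noc4l, Nop14, Wdr43, Imp4, Nop56 and Wdr12), and 25.02% of all tested genes were below that limit in either direction.

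The sizes of the differences were also small. The median log2 fold change was 0.07 for the members and 0.01 for all tested genes, and the quartiles were 0.0047 and 0.15 for the members and -0.17 and 0.17 for all tested genes. A log2 fold change within 0.25 of 0 was measured for 47 of 52 members and for 63.5% of all tested genes. More members lay above 0 than below, 39 against 13, and 52.2% of all tested genes lay above 0. Among members that were not called, the lowest log2 fold change was -0.28 (Nop10) and the highest was 0.25 (Nop14). The SE of a member's log2 fold change ran from 0.02 to 0.22 with a median of 0.09. A difference near 0.1 is about the size of that median SE. The smallest difference that the exact test could call was not measured.

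**Figure D1:**
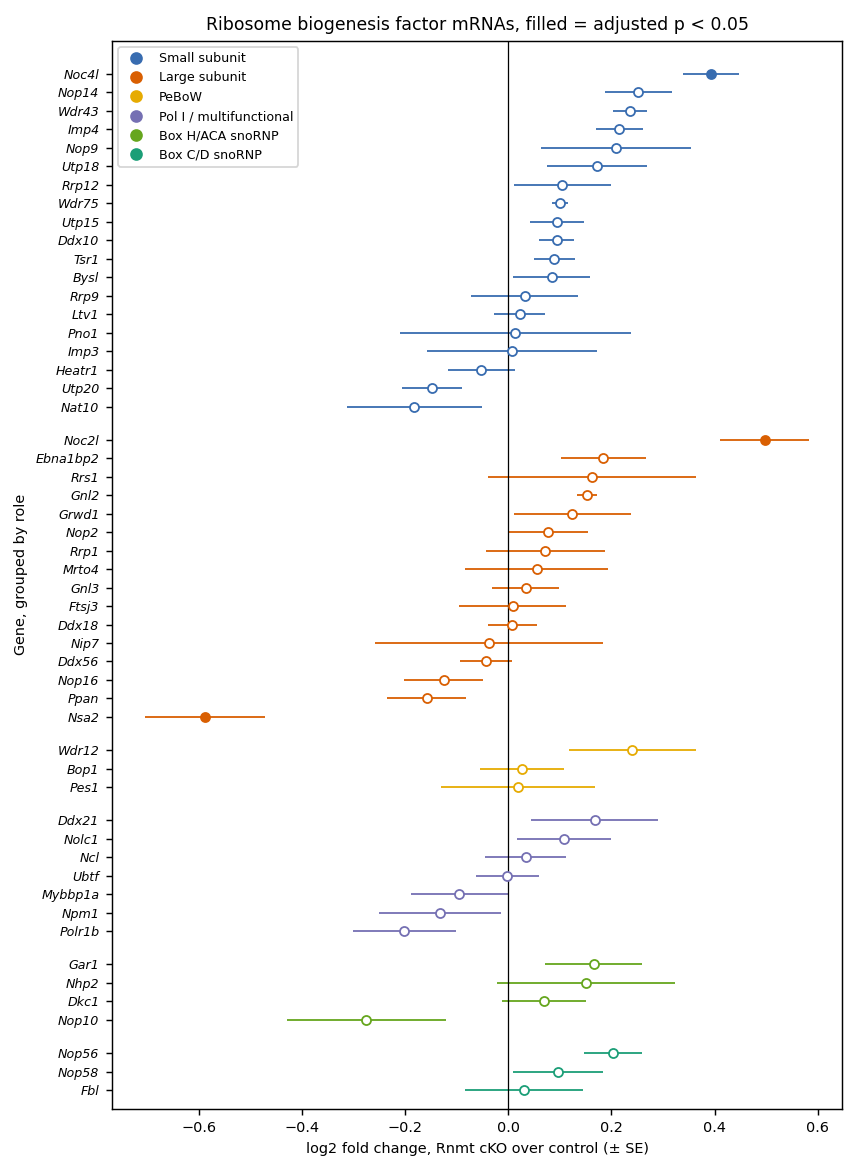
Log2 fold change of each of the 52 members in Rnmt cKO over control naïve CD4 T cells (x axis), grouped by role and coloured by it, with bars for ± 1 SE (n = 3 libraries per group). Filled points, Nsa2 at -0.59, Noc4l at 0.39 and Noc2l at 0.50, passed the edgeR exact test at an adjusted p of 0.05, and the other 49 lie between -0.28 and 0.25.

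Nsa2 (ENSMUSG00000060739, chromosome 13, 97129424 to 97137937, reverse strand, GRCm38) encodes a factor of nucleolar large subunit precursors and was the only member that fell. It was measured at 201, 184 and 181 CPM in controls 1, 2 and 3 and at 115, 116 and 145 CPM in Rnmt cKO 1, 2 and 3. Every Rnmt cKO library was below every control, and Rnmt cKO 3 was the nearest to the controls. The means were 189 ± 10.6 CPM (SD, n = 3) and 125 ± 16.7 CPM (SD, n = 3), a decrease of 33.5%. The log2 fold change was -0.59 with an SE of 0.12 (edgeR exact test, adjusted p = 4.86e-06). It passed the threshold under 16 of 16 alternative settings, with log2 fold changes from -0.72 to -0.47. Of the exon bases of Nsa2, 58.9% lie opposite exons of Fam169a on the other strand. Sense reads were counted, and with reads of either strand the log2 fold change of Nsa2 was -0.58.

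Noc2l (ENSMUSG00000095567, chromosome 4, 156236010 to 156247616, forward strand) encodes a nucleolar protein of early large subunit assembly that is also known as an inhibitor of histone acetylation. Its mRNA was at 124, 119 and 112 CPM in control cells and at 163, 154 and 185 CPM in Rnmt cKO cells, with all Rnmt cKO libraries above all controls. It rose by 41.2%, from 119 ± 5.78 CPM to 167 ± 15.6 CPM (SD, n = 3 each). The log2 fold change was 0.50 with an SE of 0.09 (edgeR exact test, adjusted p = 2.67e-05), and 16 of 16 alternative settings kept it past the threshold, with log2 fold changes from 0.40 to 0.62. Exons of Samd11 on the opposite strand cover 20.9% of its exon bases, and with reads of either strand its log2 fold change was 0.53.

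Noc4l (ENSMUSG00000033294, chromosome 5, 110648418 to 110653417, reverse strand) encodes a small subunit factor that binds the NOP14 protein. Its level was 24.2, 24.2 and 22.2 CPM in the control libraries and 30.01, 30.2 and 32.4 CPM in the Rnmt cKO libraries. The groups did not overlap, and the values within each group were close together. The mean rose from 23.5 ± 1.15 CPM to 30.9 ± 1.35 CPM (SD, n = 3 each), or by 31.3%, with a log2 fold change of 0.39 and an SE of 0.05 (edgeR exact test, adjusted p = 0.00902). This call held under 12 of 16 alternative settings. It was lost with DESeq2 (adjusted p = 0.0703), with the replicate number as a block (adjusted p = 0.107), without control 2 (adjusted p = 0.0553) and without control 3 (adjusted p = 0.0735).

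The 100 bases upstream of the RefSeq start of these 3 genes are shown because they are the members whose mRNA changed, and capitals mark CGGAAG (the core of ETS factor sites), TGACGT (part of the cAMP response element) or the E-box CACGTG on either strand (GRCm38.p6, RefSeq, written 5′ to 3′ on the strand of the gene).

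Nsa2 (chr13:97137927-97138026, reverse strand): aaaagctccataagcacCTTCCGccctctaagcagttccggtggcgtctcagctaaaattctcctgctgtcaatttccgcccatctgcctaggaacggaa
Noc2l (chr4:156235915-156236014, forward strand): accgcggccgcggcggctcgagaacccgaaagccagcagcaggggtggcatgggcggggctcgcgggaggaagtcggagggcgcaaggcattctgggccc
Noc4l (chr5:110653383-110653482, reverse strand): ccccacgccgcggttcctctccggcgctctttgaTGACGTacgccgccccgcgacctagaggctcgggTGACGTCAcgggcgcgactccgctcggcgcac

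The Nsa2 stretch holds CGGAAG on the opposite strand. The stretch of Noc4l holds TGACGT at 2 places, the second of them within the palindrome TGACGTCA. None of the 3 motifs lies in the printed stretch of Noc2l. The longer promoter windows described further below hold CGGAAG for Noc2l and TGACGT for Nsa2, outside the stretches printed here. Nsa2 and Noc4l each start head to head with a gene on the other strand. Gfm2, which encodes a mitochondrial translation factor and shares its start with Nsa2, had a log2 fold change of -0.08 (edgeR exact test, adjusted p = 0.737). Ddx51, which encodes a helicase and starts 34 bases from Noc4l, had one of -0.03 (adjusted p = 0.948). Among all 52 members, 17 had a neighbour on the opposite strand with a start within 1000 bases. For Rrp9, Wdr12 and Gnl3 a neighbour's start lay within the member (distances of -986, -398 and -14 bases), so these pairs overlap. None of the 17 neighbours tested was called by the exact test, the quasi-likelihood test or DESeq2. In the exact test, 1 was below an unadjusted p of 0.05, and the median log2 fold change was 0.0024. Over all tested genes, the exact test called 14.8%, and 25.02% were below that unadjusted limit.

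**Figure D2:**
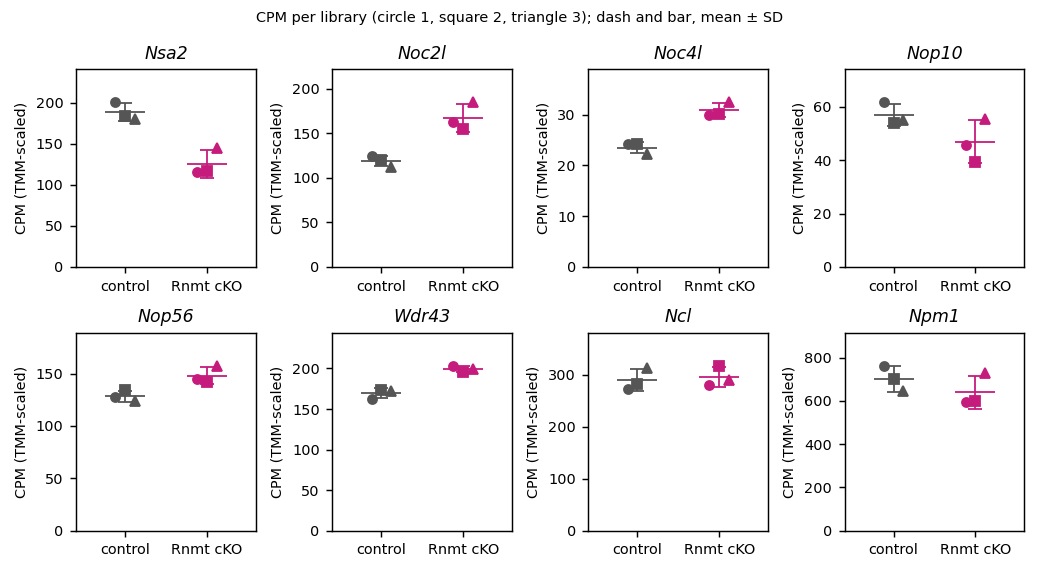
TMM-scaled CPM (y axis, from 0) of 8 members in control and Rnmt cKO cells, with 1 point per library (circle, square and triangle for libraries 1, 2 and 3) and the mean ± SD of each group. Groups are apart for Nsa2, Noc2l, Noc4l, Nop56 and Wdr43, and overlap for Nop10, Ncl and Npm1.

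Genes of the box C/D snoRNP proteins, which carry out 2′-O-methylation of ribosomal RNA, were at or slightly above control levels, and none of the 3 was called. Fbl, the methyltransferase fibrillarin, was at 38.6, 35.5 and 33.1 CPM in control cells and at 36.8, 32.2 and 40.5 CPM in Rnmt cKO cells, with overlapping groups and a log2 fold change of 0.03 that was below 0 without Rnmt cKO 3 and without control 3. Nop58, a scaffold protein of the particle, was at 97.3, 107 and 115 against 109, 122 and 109.7 CPM, also with overlap. The partner scaffold protein NOP56 is encoded by Nop56. Its mRNA was at 128, 134 and 124 CPM in control cells and at 145, 142 and 157 CPM in Rnmt cKO cells, so the groups did not overlap, but its log2 fold change of 0.20 (SE 0.06) had an edgeR exact test adjusted p of 0.135. Summed over the 3 genes, the level was 270.5 ± 6.46 CPM in control cells and 298 ± 8.77 CPM in Rnmt cKO cells, as mean ± SD of 3 libraries.

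The 4 box H/ACA snoRNP genes lay on both sides of 0, and none was called. Over the 17 genes of the snoRNPs, RNA polymerase I group and PeBoW complex, the exact test, the quasi-likelihood test and DESeq2 each called 0, and 3 were below an unadjusted p of 0.05 in the exact test. That test called 14.8% of all tested genes, and 25.02% of them were below the unadjusted limit. Dkc1, the pseudouridine synthase of the particle, was at 83.0, 86.3 and 84.8 CPM in control cells and at 81.4, 87.0 and 98.1 CPM in Rnmt cKO cells, and Nhp2 was at 39.7, 37.1 and 29.8 against 36.7, 35.4 and 46.2 CPM. The least abundant, Gar1, was at 7.41, 8.88 and 8.73 against 9.51, 8.77 and 9.86 CPM. All 3 had overlapping groups and log2 fold changes between 0.07 and 0.17.

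Nop10, the smallest core protein of the H/ACA particle, had the lowest log2 fold change after Nsa2. Its mRNA was at 61.7, 53.9 and 55.1 CPM in control cells and at 45.9, 39.5 and 55.6 CPM in Rnmt cKO cells. Rnmt cKO 1 and 2 lay below all controls and Rnmt cKO 3 lay among them. The log2 fold change was -0.28 with an SE of 0.15 (edgeR exact test, adjusted p = 0.172), and without Rnmt cKO 3 it was -0.44 with an adjusted p of 0.000973.

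RNA polymerase I and the multifunctional nucleolar proteins numbered 7 genes with a median of -0.0021 for the log2 fold change, and none was called. Polr1b, the second largest subunit of RNA polymerase I, was at 52.7, 51.9 and 47.4 CPM in control cells and at 38.8, 46.6 and 46.5 CPM in Rnmt cKO cells. Its groups did not overlap, and its log2 fold change of -0.20 (SE 0.10) had an adjusted p of 0.261 in the edgeR exact test. Ubtf, the factor that bends and opens ribosomal DNA for transcription, was at 203, 211 and 209 against 195, 202 and 224 CPM, and its log2 fold change of -0.0021 was 0.12 with scaling to library size alone.

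Npm1, the nucleolar chaperone nucleophosmin, had the highest level of all members per length, 345 ± 28.8 RPKM (CPM per kilobase of exon; SD, n = 3). It was at 761, 700.1 and 644 CPM in control cells and at 595, 598 and 727 CPM in Rnmt cKO cells, with overlapping groups and a log2 fold change of -0.13 (adjusted p = 0.548 by the edgeR exact test). Without Rnmt cKO 3, its log2 fold change was -0.25 with an adjusted p of 0.0351. Ncl, the RNA-binding protein nucleolin, was at 273, 282 and 313 against 281, 317 and 290.1 CPM, again with overlap, and its log2 fold change of 0.03 was below 0 without control 1 and without Rnmt cKO 2. The helicase gene Ddx21 was at 282, 276 and 270.5 CPM in control cells and at 288, 278 and 364 CPM in Rnmt cKO cells, and Rnmt cKO 3 alone lay well above the controls.

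The PeBoW complex, a trimer needed for maturation of the large subunit RNAs, showed no called change in its 3 genes. Pes1 was at 81.9, 74.0 and 70.1 CPM in control cells and at 69.8, 67.8 and 91.2 CPM in Rnmt cKO cells, and its partner Bop1 at 70.4, 70.0 and 64.2 against 66.5, 65.6 and 76.3 CPM. Both had overlapping groups, with log2 fold changes of 0.02 and 0.03 that were below 0 without Rnmt cKO 3 and without control 3. Wdr12, the WD-repeat subunit, was at 58.1, 48.4 and 55.0 CPM in control cells and at 68.7, 66.7 and 55.4 CPM in Rnmt cKO cells. Rnmt cKO 1 and 2 lay above all controls and Rnmt cKO 3 did not. The log2 fold change of Wdr12 was 0.24 (edgeR exact test, adjusted p = 0.186), and 0.31 with an adjusted p of 0.0134 without Rnmt cKO 3.

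The 16 large subunit assembly genes held the widest range of the roles, from -0.59 for Nsa2 to 0.50 for Noc2l, with a median log2 fold change of 0.04. Their summed level was 1075 ± 47.5 CPM in control cells and 1084 ± 103 CPM in Rnmt cKO cells, as mean ± SD of 3 libraries. The other 14 lay between -0.16 (Ppan) and 0.18 (Ebna1bp2), and the exact test, the quasi-likelihood test and DESeq2 called none of them. None of the 14 was below an unadjusted p of 0.05 in the exact test. Beside this, the exact test called 14.8% of all tested genes, and 25.02% were below that unadjusted limit. Rrp1, which had the second highest level per length among the members at 74.4 ± 3.66 RPKM in controls, was at 153, 151 and 139 CPM in control cells and at 140.3, 146 and 179 CPM in Rnmt cKO cells, and only Rnmt cKO 3 lay above the controls. The helicase gene Ddx56 was at 47.4, 46.2 and 45.0 against 43.9, 42.9 and 47.6 CPM, with a log2 fold change of -0.04 that was 0.08 with scaling to library size alone.

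Further members are named here because their groups did not overlap, which was seen from their values. Gnl2, a nucleolar GTPase of the large subunit precursor, was at 63.4, 63.9 and 65.2 CPM in control cells and at 71.9, 69.9 and 72.2 CPM in Rnmt cKO cells, with a log2 fold change of 0.15 (edgeR exact test, adjusted p = 0.303). Ppan, a nucleolar factor of the same precursor, was at 51.6, 49.5 and 48.0 against 45.0, 40.6 and 48.0 CPM, with control 3 and Rnmt cKO 3 alike to 3 digits, all Rnmt cKO libraries below the controls and an adjusted p of 0.384. Among all 52 members, groups did not overlap for 15, 4 lower and 11 higher, or 28.8%. Of all tested genes, 31.4% had groups that did not overlap, 14.9% lower and 16.6% higher.

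The 19 small subunit assembly genes had a median log2 fold change of 0.09, with 16 above 0 and Noc4l the single call. Their summed level was 1237, 1258 and 1254 CPM in control cells and 1304, 1283 and 1385 CPM in Rnmt cKO cells, so that all Rnmt cKO libraries were above all controls. Groups did not overlap for 9 of the 19, 8 of them higher (Noc4l, Nop14, Wdr43, Imp4, Wdr75, Utp15, Ddx10 and Tsr1) and 1 lower (Utp20). Of all tested genes, 16.6% were higher and 14.9% lower without overlap, 52.2% lay above 0 and 14.8% were called. Nop14, the partner of Noc4l in the small subunit precursor, was at 49.3, 55.7 and 53.0 CPM in control cells and at 59.4, 64.9 and 63.9 CPM in Rnmt cKO cells. Its log2 fold change of 0.25 (SE 0.06) was the highest among members not called, with an adjusted p of 0.0760 in the edgeR exact test.

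Wdr43, a member of the subcomplex that binds the nascent transcript first, was at 163, 174 and 172 CPM in control cells and at 203, 196 and 199.7 CPM in Rnmt cKO cells. Its log2 fold change was 0.24 with an SE of 0.03 (edgeR exact test, adjusted p = 0.0533), just outside the threshold, and the adjusted p was 0.0474 when all 6 libraries had to exceed 1 CPM and 0.0368 without Rnmt cKO 3. Other genes of that subcomplex had log2 fold changes of 0.10 (Wdr75), 0.09 (Utp15) and -0.05 (Heatr1). Imp4, a component of the small subunit processome, was at 71.6, 70.8 and 70.8 CPM in control cells and at 82.3, 78.1 and 87.0 CPM in Rnmt cKO cells, with a log2 fold change of 0.22 (adjusted p = 0.109). Its partner Imp3 was at 48.4, 42.7 and 39.1 against 40.0, 38.4 and 52.3 CPM, with overlap. Utp20, a scaffold protein of the same assembly, was at 111, 114 and 118 against 98.5, 100.4 and 111 CPM, with control 1 and Rnmt cKO 3 alike to 3 digits, and its adjusted p was 0.331 in all libraries and 0.0393 without Rnmt cKO 3, where its log2 fold change was -0.22. Bysl, among the lowest members per length at 7.91 ± 0.456 RPKM in controls, was at 30.7, 28.6 and 32.1 against 33.4, 29.8 and 33.8 CPM, with overlap.

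**Figure D3:**
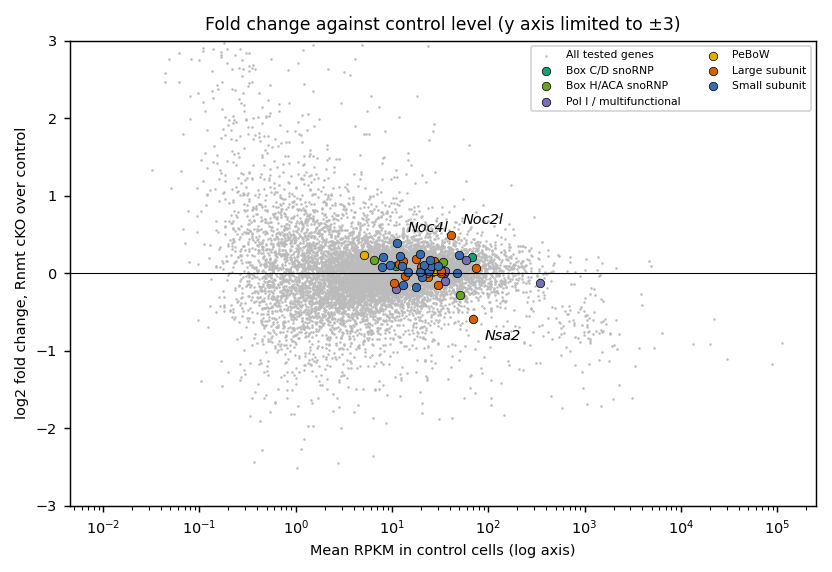
Log2 fold change in Rnmt cKO over control cells (y axis, limited to 3 on either side, which leaves out 43 genes) against the mean level in control cells in RPKM (x axis, log scale) for all tested genes (grey) and the 52 members (coloured by role). Most members lie right of the centre of the grey cloud and close to a log2 fold change of 0, and Nsa2 is the lowest of them.

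These mRNAs were of moderate to high abundance in naïve cells. Their median level in controls was 24.2 RPKM, beside 10.6 RPKM over the 10390 protein-coding genes tested, and 46 of 52 were above that median. Per length, the highest were Npm1, Rrp1 and Nsa2 (69.9 ± 3.93 RPKM), and the lowest were Wdr12 (5.07 ± 0.465 RPKM), Gar1 (6.56 ± 0.638 RPKM) and Bysl. Wdr12 has 10613 exon bases, and without division by length its control mean was 53.8 CPM, beside 8.34 CPM for Gar1. The spread within groups was smaller for the members than for all tested genes, with a median SD on the log2 scale of 0.081 in controls and 0.12 in Rnmt cKO cells, beside 0.13 and 0.16.

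The members deviated together in 1 library, Rnmt cKO 3. Their median deviation from the control mean on the log2 scale was 0.04, 0.01 and -0.04 for controls 1, 2 and 3, against 0.03, -0.02 and 0.18 for Rnmt cKO 1, 2 and 3. Rnmt cKO 3 was the highest of the 3 Rnmt cKO libraries for 43 of 52 members (82.7%) and for 41.4% of all tested genes, and it was the highest of all 6 libraries for 35 members and for 24.1% of all tested genes. It also had the lowest share of reads in no gene, 31.8%. The summed CPM of the members was 4845, 4756 and 4634 for controls, against 4622, 4640 and 5247 in Rnmt cKO cells, with overlap.

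Without Rnmt cKO 3, the median log2 fold change of the members was -0.01, and 4 members were lower (Nsa2, Nop10, Npm1 and Utp20) and 4 higher (Noc2l, Noc4l, Wdr12 and Wdr43), beside 20.6% of all genes tested in that fit. Within the 3 libraries with the lower share of reads in no gene (controls 1 and 2 and Rnmt cKO 3), the median log2 ratio of Rnmt cKO to control over the members was 0.15, and within the other 3 it was 0.04. In these sets the ratio was -0.41 and -0.64 for Nsa2, 0.60 and 0.50 for Noc2l and 0.42 and 0.44 for Noc4l, each from an arm of 1 library against 2, and since the groups of these 3 genes do not overlap no other direction was possible. For Nop10 it was -0.05 and -0.37, and for Ddx21 it was 0.39 and 0.07.

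**Figure D4:**
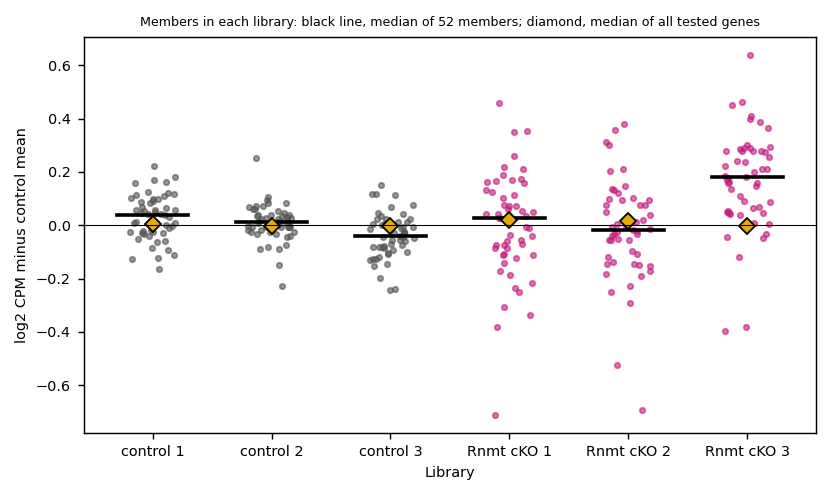
Log2 CPM minus the control mean (y axis) of each of the 52 members (points) in each library (x axis), with the median of the members as a black line and the median of all tested genes as a diamond. The line lies at 0.18 in Rnmt cKO 3 and between -0.04 and 0.04 in the other 5 libraries, while the diamonds stay near 0.

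Before scaling with TMM factors, the members held 0.442, 0.466 and 0.453% of gene counts in controls and 0.493, 0.497 and 0.519% in Rnmt cKO cells, and the groups did not overlap. With scaling to library size alone, the median log2 fold change of all tested genes moved from 0.01 to 0.14 and that of the members from 0.07 to 0.19, and 11 members were higher and 1 was lower, or 23.1%, beside 20.0% of all tested genes.

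Another 107 genes of ribosome biogenesis, from a list of known functions that holds none of the 52, were counted in the same fit. Of these, 1 fell and 9 rose, or 9.35%, beside 14.8% of all tested genes, and the median log2 fold change was 0.08. Groups did not overlap for 6 lower (5.61%) and 29 higher (27.1%) genes of the 107, beside 14.9% and 16.6% of all tested genes. Riok3, a RIO family kinase linked to small subunit precursors, had the largest rise, from 111, 107 and 117 CPM in control cells to 171, 187 and 192 CPM in Rnmt cKO cells (log2 fold change 0.71, edgeR exact test adjusted p = 3.1e-12). Kri1, a nucleolar processing factor, rose from 119, 123 and 107 to 167, 154 and 149 CPM (log2 fold change 0.43, adjusted p = 0.000211), and Utp3, a small subunit processome protein, from 60.4, 56.2 and 53.9 to 70.8, 70.2 and 83.4 CPM (log2 fold change 0.40, adjusted p = 0.00341). In each of the 3, all Rnmt cKO libraries were above all controls. The gene that fell was Taf1d, a subunit of the selectivity factor of RNA polymerase I, from 72.3, 80.5 and 74.4 to 49.5, 57.9 and 53.6 CPM (log2 fold change -0.50, edgeR exact test adjusted p = 3.83e-05), again without overlap.

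Introns of 8 members hold 23 annotated snoRNA genes on the same strand, and the mature snoRNAs are released from the host intron. Nop56 holds 5 of them, Nop58 holds 4, Ncl, Gnl3 and Wdr43 hold 3 each, Ppan and Tsr1 hold 2 each and Dkc1 holds 1. Counts over them were low. They were 0 in all libraries for 8, never above 3 for 10 and always below 10 for 15, so changes in most of them were not detectable at these counts, which hold uniquely mapped reads only. With multimapping reads kept and genes grouped by family, the paper reports that most snoRNAs it detected in naïve cells were reduced in Rnmt cKO cells. The 2 that passed the expression filter are printed below (GRCm38, sense strand). The letters TGATGA and CTGA are in capitals wherever they occur, since box C and box D of this class hold such letters. Capitals mark matches of letters only, and which of them, if any, are box C or box D was not determined. TGATGA does not occur in Snord19.

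Snord53 (chr17:71640879-71640956, forward strand): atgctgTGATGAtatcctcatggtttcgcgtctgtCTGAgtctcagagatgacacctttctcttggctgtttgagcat
Snord19 (chr14:31016206-31016281, reverse strand): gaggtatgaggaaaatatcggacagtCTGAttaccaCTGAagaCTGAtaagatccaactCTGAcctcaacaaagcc

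Neither was called. Snord53, in an intron of Wdr43, had 34, 26 and 32 counts in controls and 28, 52 and 26 counts in Rnmt cKO cells, with a log2 fold change of -0.05 (edgeR exact test, adjusted p = 0.971). Snord19, in an intron of Gnl3, had 8, 16 and 16 against 11, 26 and 12 counts, with a log2 fold change of 0.05 and an adjusted p of 1. The groups overlapped for both. Reads of the host intron and of the snoRNA cannot be told apart by these counts.

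The MYC protein is known to drive transcription of many nucleolar genes through the E-box CACGTG. Myc mRNA was at 73.7, 78.3 and 72.1 CPM in control cells and at 74.3, 78.0 and 90.6 CPM in Rnmt cKO cells, and its log2 fold change of 0.12 (SE 0.09) had an edgeR exact test adjusted p of 0.555. RefSeq promoter windows of 300 bases, from 250 before to 50 after the start, were found for 46 of the 52 members. The E-box letters lay in 11 of these (23.9%), beside 8.09% of the 27025 windows of all genes and 12.2% of those of tested genes. The 30 bases around each are shown so that the flanking bases can be read, with the E-box in capitals (GRCm38.p6, strand of the gene).

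Grwd1 (chr7:45830740-45830769, reverse strand): aagggccggagtcgCACGTGtgaaaccgga
Imp4 (chr1:34439696-34439725, forward strand): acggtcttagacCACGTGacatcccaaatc
Ltv1 (chr10:13193092-13193121, reverse strand): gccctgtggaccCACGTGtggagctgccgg
Mybbp1a (chr11:72441347-72441376, forward strand): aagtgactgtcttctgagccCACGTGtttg
Nop2 (chr6:125131811-125131840, forward strand): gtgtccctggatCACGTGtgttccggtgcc
Pes1 (chr11:3963965-3963994, forward strand): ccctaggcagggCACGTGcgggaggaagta
Pno1 (chr11:17211540-17211569, reverse strand): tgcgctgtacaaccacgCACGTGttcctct
Tsr1 (chr11:74898092-74898121, forward strand): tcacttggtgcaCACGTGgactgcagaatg
Utp18 (chr11:93885769-93885798, reverse strand): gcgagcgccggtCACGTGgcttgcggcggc
Utp20 (chr10:88826765-88826794, reverse strand): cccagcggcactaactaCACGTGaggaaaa
Wdr43 (chr17:71616220-71616249, forward strand): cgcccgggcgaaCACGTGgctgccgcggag

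None of these 11 members was called, beside 14.8% of all tested genes, and 11 genes are too few to tell these shares apart. The median log2 fold change was 0.08 with the E-box and 0.07 without it. The letters CGGAAG lay in 26 windows (56.5%, beside 18.8% of all genes and 38.4% of tested genes), and TGACGT in 14 (30.4%, beside 8.37% and 14.3%). The called members were Nsa2 and Noc2l among the 26 windows with CGGAAG, and Nsa2 and Noc4l among the 14 with TGACGT, beside the same 14.8%. All 3 motifs were searched on both strands. A cytosine followed by 4 pyrimidines at the annotated start, the mark of terminal oligopyrimidine (TOP) mRNAs, was found in none of the 46 windows. It was found in 3.01% of all genes, and at so low a share its absence from 46 windows does not show that the members lack it. The paper reports binding sites of LARP1, a protein that binds TOP mRNAs, for the members Ncl, Npm1 and Imp3. It reports lower levels of their proteins in activated Rnmt cKO cells. In naïve cells, the paper names nucleolar proteins among the LARP1-bound groups that loss of Rnmt affected most regularly. Here, the log2 fold change was 0.03 for Ncl, -0.13 for Npm1 and 0.0070 for Imp3. Among other genes that the paper names with such sites, Taf1d was at -0.50, Polr1c at -0.34, Emg1 at -0.26 and Utp14a at -0.08. Of these, only Taf1d was called. The motif counts are matches of letters at annotated starts, and no start site or factor binding was measured here.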

How the data were processed

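Fragments were aligned by the authors to mm10 (GRCm38) with STAR 2.5.2b, per the labels, and the deposited tables hold raw counts per gene, without normalization, for unstranded reads and for each strand. Dividing the sense counts by a constant gave, to within 0.1% for every gene, the normalized signal in the authors' deposited edgeR table, so sense counts were used. That table also holds the authors' log2 fold changes, log2 mean abundance, p-values and adjusted p-values, which were not used, and its signal served for this check alone. Reads assigned to no gene stayed out of library sizes.

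Genes that exceeded 1 CPM in 3 or more libraries were tested with the exact test of edgeR 4.0.16 in R 4.3.3 (TMM factors, tagwise dispersions, Benjamini-Hochberg adjustment over 12336 genes, threshold 0.05, control against Rnmt cKO). CPM are TMM-scaled, and SEs come from log2 CPM with a prior count of 2. RPKM used union exon lengths of GENCODE vM21 (46488 of 46983 identifiers found), which also gave coordinates. Depth was 8873413 to 11277764 counts per library. Alternatives were the quasi-likelihood test, DESeq2 1.42.0, other scalings, filters and strands, a replicate block, the share of reads in no gene as a covariate, and leaving out each library.

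In simulated data, the exact test recovered 80.4% of genes changed by a log2 fold change of 1 and 98.0% of those changed by 1.5, and called 25 unchanged genes of 12185. Changes of the size of most members were not simulated. The members, roles and lists were chosen with earlier results of these data known. Named members are those past the threshold, the 3 highest and lowest by fold change and by RPKM, the snoRNP and PeBoW genes, and Polr1b, Ubtf, Ncl, Npm1 and Ddx56. From the other list, the 3 largest rises and the only fall past the threshold are named, with Rnmt, Myc and tested snoRNA genes. Others were named after their values were seen.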

Additional observations from a re-analysis of the deposited data

How the results depend on the processing

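Nsa2 and Noc2l kept their direction and their call under all 16 alternatives. With 1 member lower and 2 higher as reported, the share of reads in no gene as a covariate gave 3 lower and 7 higher (19.2% called, beside 25.6% of all genes), scaling to library size alone 1 lower and 11 higher (23.1%, beside 20.0%), and DESeq2 1 lower and 1 higher (3.85%, beside 10.9%). Leaving out each library gave 1 to 4 lower and 1 to 4 higher, with both maxima without Rnmt cKO 3, and 1 higher without control 2 or control 3. Of all genes, 20.6% were called without Rnmt cKO 3 and 9.83 to 10.7% without any other library. The median log2 fold change of the members was 0.19 with library size alone and -0.0105 to 0.0951 with a library left out. The shares of all genes called, as given above for each setting, also stand beside the counts that follow. For the 107 other biogenesis genes, the covariate gave 4 lower and 23 higher, and DESeq2 5 higher. Library size alone gave 28 higher and a median of 0.20. Leaving out a library gave 1 to 4 lower (4 without Rnmt cKO 3) and 5 to 9 higher (5 without control 2 or control 3). The median was then 0.0181 to 0.101. The cause of these moves was not tested.

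With the replicate number as a block, 1 member was higher (Noc2l, with Noc4l lost) and 2 of the other biogenesis genes were higher, as 5.73% of all genes were called. Libraries of the same number did not deviate together (correlations of -0.21, -0.02 and -0.35 for numbers 1, 2 and 3), and they were treated as unpaired. The labels do not say whether a number marks a shared litter or day. With 3 libraries per group, these correlations cannot exclude it.

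Members that were not called and lay near 0 changed sign. Ubtf, at -0.0021 as reported, was 0.0100 with reads of either strand, 0.12 with library size alone, 0.0020 with more than 1 CPM in all 6 libraries, 0.0015 without a filter and 0.0065 with the covariate, and Ddx56 was 0.0777 with library size alone. With a library left out, the log2 fold change of Ubtf ran from -0.0796 to 0.0360, Rrp1 from -0.0608 to 0.137, Pes1 from -0.148 to 0.0933, Bop1 from -0.0639 to 0.0624, Fbl from -0.0714 to 0.110, Dkc1 from -0.0259 to 0.126 and Ncl from -0.0234 to 0.0929. Of the 23 snoRNA genes, 15 stayed below 10 counts in every library, and the cause of these low counts was not tested.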
